A study of Capra hircus with 20 samples.

Results

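The genes described here are 4 myogenic regulatory factors (MYOD1, MYOG, MYF5 and MYF6), the paired-box factor PAX7 and 3 genes of the MEF2 family (MEF2A, MEF2C and MEF2D). They were taken from the mRNA table by gene symbol, and the FPKM values of all transcripts of a symbol were summed to give the level of the gene. These 8 symbols are among 20587 gene symbols in the table and hold 31 of its 43766 transcripts. RNA was sequenced from cultured cells of 7-day-old male Jianzhou Daer goats in 20 libraries, which form 4 groups of 5. Intramuscular preadipocytes (IMPA) were isolated with collagenase from the longissimus dorsi, a back muscle, and subcutaneous preadipocytes (SPA) from subcutaneous fat, and both were used at passage 3 and collected on day 0 of induction. Intramuscular adipocytes (IMA) and subcutaneous adipocytes (SA) were the cells of the same kinds collected on day 3, after culture in DMEM/F12 medium with 10% fetal bovine serum and oleic acid, a fatty acid that induces lipid storage. The methods of the study describe no step that sorts the isolated cells by type. The study lists 5 goats and describes its replicates as biological. The labels do not name the goat or the culture behind a replicate number. The p-values therefore measure the spread between these libraries, and how much of it is technical is unknown.

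MYOD1, MYF5, MYOG and MYF6 are basic helix-loop-helix (bHLH) transcription factors that bind DNA as dimers with E proteins and switch on skeletal muscle genes. MYF5 and MYOD1 mark the commitment of a cell to the muscle lineage, MYOG drives the differentiation of myoblasts into fusing myotubes, and MYF6 is best known from later muscle differentiation, while PAX7 marks satellite cells, the stem cells of skeletal muscle. The MEF2 proteins act with the myogenic factors on the promoters of contractile genes, and they are also expressed outside muscle.

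FPKM scales the fragments of a transcript to its length and to all mapped fragments of the library. No counts were used here, the low values were not whole multiples of a unit, and the number of reads behind a single value is therefore unknown. Summed FPKM of the mRNA table ranged from 373889 to 413880 over the libraries, with 15126 to 16961 gene symbols above 0 in each. Of the summed FPKM of mRNA and long noncoding RNA, mRNA held 67.2% to 68.5% in IMPA and 68.7% to 75.3% in IMA, without overlap. It held 67.2% to 70.0% in SPA and 68.1% to 72.1% in SA. The study's read statistics give higher mapping rates for preadipocyte than for adipocyte libraries of both kinds, without overlap. They also give higher rates for intramuscular than for subcutaneous libraries at both stages, again without overlap. Effects of stage or of cell type therefore cannot be told apart from those of mapping rate. Levels were compared on the scale log2(FPKM + 1) with limma, over 11432 genes whose mean over the 20 libraries was at least 1 FPKM, and a gene was called different at a Benjamini-Hochberg adjusted p under 0.05 over all of these genes. A fold change on this scale understates the change of a gene with a low level. All 8 genes passed the filter on low values, but MYOD1, MYOG, MYF5, MYF6 and PAX7 had means under 1 FPKM in both SPA and SA and passed it only through the intramuscular libraries. The same holds for MEF2C, whose mean over the 10 subcutaneous libraries was just under 1 FPKM.

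The labels of the cells were first compared with marker genes. Of 7 adipocyte markers in the table, 5 had a mean under 1 FPKM in IMPA (ADIPOQ, CIDEC, LEP, PLIN1 and PPARG), and 6 in IMA, where LPL joined them. In SA, ADIPOQ, LEP and PLIN1 were under 1 FPKM and PPARG, the master regulator of fat cell differentiation, was at 1.03 ± 0.252 FPKM (SD, n = 5). The FPKM values of the 7 adipocyte markers summed to 11.7 ± 0.301 in IMPA, 7.68 ± 0.609 in IMA, 11.4 ± 0.553 in SPA and 11.2 ± 0.837 in SA, and CEBPA was the most abundant of them in IMPA (9.23 FPKM), IMA (5.42 FPKM) and SPA (5.05 FPKM), and CIDEC in SA (4.35 FPKM). ADIPOQ, LEP and PLIN1, which define mature adipocytes, were therefore near 0 in all 4 groups, and the names IMA and SA are used below as labels only. In the subcutaneous cells LPL was higher in SA (1.34 ± 0.271 FPKM) than in SPA (0.549 ± 0.0395 FPKM) without overlap, and PPARG was at 0.624 ± 0.131 FPKM in SPA and overlapped with SA. DLK1, also known as Pref-1 and a marker of preadipocytes, did not exceed 0.269 FPKM in any library. The lipid staining done in the study is not part of the data used here.

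In contrast, 18 genes of muscle differentiation and fusion, such as sarcomere proteins and acetylcholine receptor subunits, summed to 3793 ± 328 FPKM in IMPA and 9935 ± 403 FPKM in IMA. The same 18 genes summed to 7.35 FPKM on average in SPA and to 7.17 FPKM in SA. ACTC1, the cardiac-type actin that is also made by young skeletal muscle cells, was the most abundant of them in both intramuscular groups, with 1444 FPKM in IMPA and 2686 FPKM in IMA. Of 10 surface and signalling markers of satellite cells, 9 had a mean of at least 1 FPKM in IMPA and the exception was CALCR. In SPA and SA 7 of the 10 were under 1 FPKM. SDC4 went the other way, at 53.7 ± 11.5 FPKM in IMPA, 46.0 ± 3.26 in IMA, 74.8 ± 3.21 in SPA and 80.5 ± 3.61 in SA. Preadipocyte or stromal markers summed to 1065 ± 140 FPKM in IMPA, 907 ± 41.9 in IMA, 6348 ± 115 in SPA and 4831 ± 116 in SA. Most of each sum was DCN, at 660, 535, 5441 and 4120 FPKM in the same order. Of 5 tested, 4 were lower in IMPA than in SPA (32.9% of all genes) and 5 in IMA than in SA (43.4% of all genes). COL1A1 was at 223 ± 28.4 FPKM in IMPA and 255 ± 61.2 in SPA, with overlap. The intramuscular libraries thus hold high levels of skeletal muscle RNA, together with lower levels of most tested stromal markers than the subcutaneous libraries. This goes against a reading of the labels as pure adipose cells. In bulk libraries such as these, fewer cells of a type and less RNA per cell cannot be told apart.

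**Figure D1:**
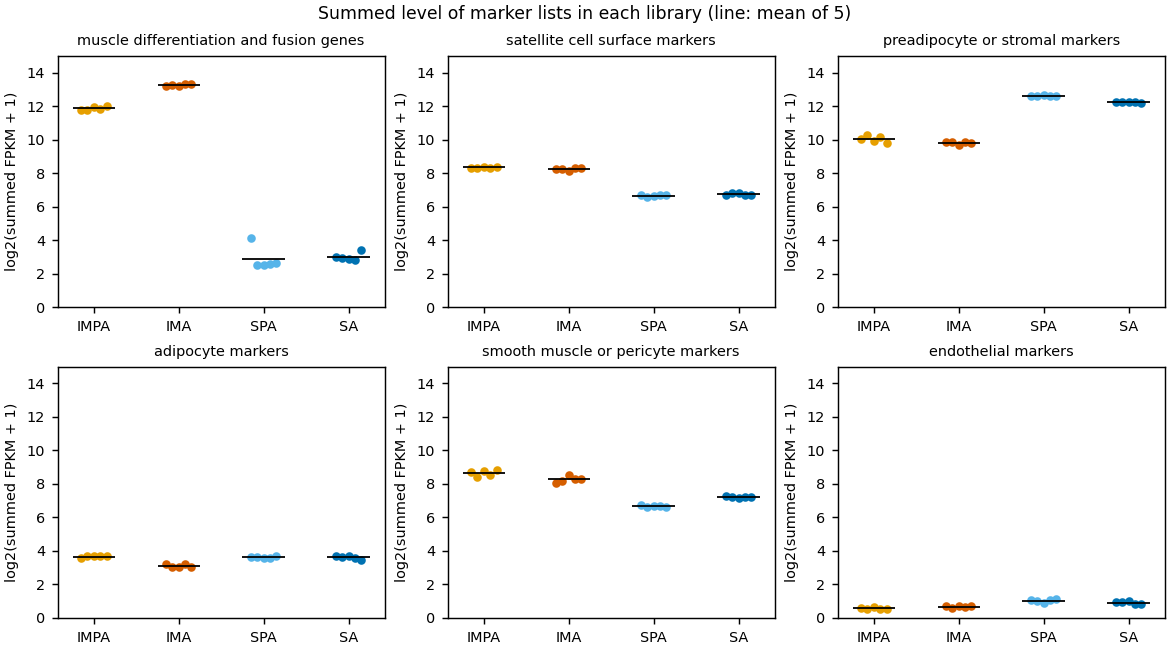
Summed FPKM of 6 marker lists on a log2(FPKM + 1) scale in each library of IMPA, IMA, SPA and SA, with a line at the mean of the 5 log2 values. The muscle list lies above 11 in all intramuscular libraries and under 5 in all subcutaneous libraries, and the adipocyte list lies under 4 in all 20 libraries.

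Markers of some other cell types were also examined. The 5 endothelial markers PECAM1, CDH5, KDR, TEK and VWF were each under 1 FPKM in every group, and their sum was highest in SPA at 1.06 ± 0.117 FPKM. Among leukocyte markers PTPRC and ITGAM were under 1 FPKM in all 4 groups, and CD14 was the most abundant (5.91 FPKM in IMPA, 9.93 in IMA, 14.5 in SPA and 13.0 in SA). CD68 was at 0.587 FPKM in IMPA, 0.989 in IMA, 2.27 in SPA and 1.23 in SA. Both CD14 (log2 fold change 0.70, adjusted p = 0.00219) and CD68 (0.33, adjusted p = 0.00189) were called higher in IMA than in IMPA, where 19.9% of all genes were higher. MYH11 and RGS5, which define smooth muscle cells and pericytes, were under 1 FPKM in all groups, whereas 3 other markers of these cells were above it. ACTA2 was at 388 FPKM in IMPA, 290 in IMA, 88.8 in SPA and 137 in SA, CNN1 at 12.3, 15.1, 7.43 and 7.04 FPKM and CSPG4 at 1.68, 3.49, 4.46 and 4.21 FPKM in the same order.

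Within the intramuscular cells the comparison of IMA with IMPA asks how the myogenic factors behave during induction. MYF6 was 5.08-fold and MEF2C 5.73-fold higher in IMA, MYOD1 was lower, MYF5, MEF2D and MYOG were slightly higher, and PAX7 and MEF2A were not called different. Thus 6 of the 8 genes were called, against 60.1% of all genes tested, with 5 of them higher in IMA (19.9% of all genes) and 1 lower (40.2% of all genes). The median log2 fold change was 0.22 over the 8 genes and −0.0852 over the 11432 genes tested. The groups did not overlap for MYOD1, MYF6 and MEF2C, 3 of the 8 genes, and they did not overlap for 43.5% of all genes tested.

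**Figure D2:**
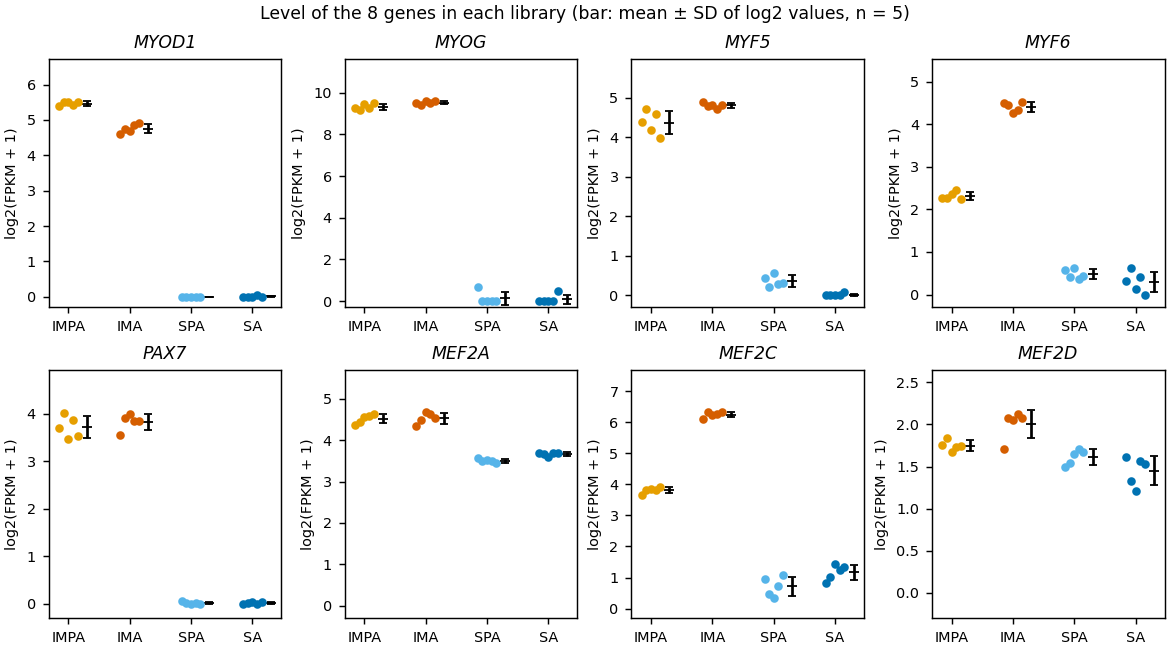
Level of each of the 8 genes as log2(FPKM + 1) in every library, with 1 panel per gene and the 5 libraries of IMPA, IMA, SPA and SA as points beside a bar for their mean ± SD. MYF6 and MEF2C stand higher in IMA than in IMPA, MYOD1 stands lower, and MYOD1, MYOG, MYF5, MYF6 and PAX7 lie near 0 in SPA and SA.

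MYOD1 was at 40.8, 44.5, 44.9, 41.6 and 44.1 FPKM in IMPA 1 to 5 and at 23.2, 25.6, 24.6, 28.0 and 29.3 FPKM in IMA 1 to 5. Every IMA library lay below every IMPA library, and the libraries of a group were close to each other. The mean fell from 43.2 ± 1.84 FPKM (SD, n = 5) to 26.1 ± 2.51 FPKM, with a log2 fold change of −0.71 (SE 0.060) and an adjusted p of 1.7e-06. MYOD1 was thus the only one of the 8 genes that was called lower in IMA than in IMPA.

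MYF5, the other factor of muscle commitment, was at 19.97, 25.4, 17.2, 22.9 and 14.8 FPKM in IMPA 1 to 5 and at 28.8, 26.6, 27.2, 25.1 and 27.2 FPKM in IMA 1 to 5. The IMPA libraries were spread widely, and IMPA 2 exceeded IMA 4, so that the groups overlapped. The log2 fold change was 0.43 (SE 0.116, adjusted p = 0.00654), opposite in sign to that of MYOD1.

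MYOG was by far the most abundant of the 8 genes per length, at 613, 582, 716, 608 and 727 FPKM in IMPA 1 to 5 and at 717, 692, 768, 727 and 774 FPKM in IMA 1 to 5. IMPA 3 and IMPA 5 reached the range of the IMA libraries, while IMPA 1, IMPA 2 and IMPA 4 lay below it. By mean FPKM, MYOG was the 100th most abundant of the 20587 gene symbols in IMPA and the 94th in IMA. The difference was small, with a log2 fold change of 0.18 (SE 0.065) and an adjusted p of 0.0269, and its call was not stable. Without IMPA 1, IMPA 2, IMPA 4, IMA 3 or IMA 5 the adjusted p was 0.0635, 0.0636, 0.0619, 0.058 and 0.0646, respectively, and 5 other alternative settings also ended the call.

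MYF6 was at 3.84, 3.79, 4.13, 4.50 and 3.74 FPKM in IMPA 1 to 5 and at 21.5, 20.9, 18.1, 19.2 and 22.0 FPKM in IMA 1 to 5. The lowest IMA library was far above the highest IMPA library. The mean level rose 5.08-fold, from 4.00 ± 0.318 to 20.3 ± 1.66 FPKM, and on the log2(FPKM + 1) scale the change was 2.09 (SE 0.063, adjusted p = 1.9e-10). In IMA, MYF6 therefore approached MYF5, and the ratio of MYF6 to MYF5 in FPKM was 0.207 ± 0.0415 (SD, n = 5) in IMPA and 0.754 ± 0.0555 in IMA.

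These changes altered the make-up of the myogenic bHLH factors, which was described as the share of each factor in their summed FPKM within a library, without a test. MYOG held 90.5% ± 1.32 (SD, n = 5) of the sum in IMPA and 90.9% ± 0.461 in IMA, with overlapping libraries. The share of MYOD1 was 6.05% ± 0.462 in IMPA and 3.23% ± 0.279 in IMA, while that of MYF6 was 0.562% ± 0.0703 in IMPA and 2.52% ± 0.242 in IMA, and the groups did not overlap for either factor. The share of MYF5 was 2.85% ± 0.822 in IMPA and 3.34% ± 0.214 in IMA, and here the groups overlapped. The ratio of MYOG to MYOD1 in FPKM lay between 13.1 and 16.5 in the IMPA libraries and between 26.0 and 31.3 in the IMA libraries. Shares and ratios within a library do not depend on how the library as a whole was scaled.

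PAX7, the satellite cell factor, was at 12.0, 15.2, 10.1, 13.5 and 10.5 FPKM in IMPA 1 to 5 and at 10.7, 13.9, 14.9, 13.4 and 13.3 FPKM in IMA 1 to 5. The libraries of the groups were mixed in order, with the highest value in IMPA 2 and the lowest in IMPA 3. Its log2 fold change of 0.11 had a 95% interval from −0.12 to 0.35 and an adjusted p of 0.384, so neither a small rise nor a small fall can be told from no change.

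MEF2C, the MEF2 gene best known from muscle and heart, was at 11.7, 13.1, 13.4, 13.2 and 13.9 FPKM in IMPA 1 to 5 and at 68.1, 79.0, 73.4, 75.1 and 78.3 FPKM in IMA 1 to 5. All IMA libraries stood several-fold above all IMPA libraries, and the spread within a group was small. The mean level was 5.73-fold higher in IMA, at 74.8 ± 4.39 FPKM against 13.0 ± 0.846 FPKM, and the log2 fold change was 2.43 (SE 0.053, adjusted p = 1.3e-11). By mean FPKM, MEF2C moved from the 4591st place among all gene symbols in IMPA to the 751st in IMA.

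MEF2A was at 19.8, 20.9, 22.5, 23.1 and 23.8 FPKM in IMPA 1 to 5 and at 19.2, 21.4, 24.5, 24.0 and 22.1 FPKM in IMA 1 to 5. The groups covered nearly the same range, and the log2 fold change of 0.01 had a 95% interval from −0.14 to 0.16 (adjusted p = 0.91). MEF2D, the least abundant of the 8 genes per length in both intramuscular groups, was at 2.37, 2.59, 2.18, 2.32 and 2.34 FPKM in IMPA 1 to 5 and at 2.27, 3.21, 3.14, 3.36 and 3.22 FPKM in IMA 1 to 5. IMA 1 lay within the range of IMPA and the other 4 IMA libraries lay above it, and the log2 fold change was 0.26 (SE 0.076, adjusted p = 0.0111).

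The balance among the MEF2 genes turned over between the intramuscular stages. MEF2A held 58.8% ± 1.06 (SD, n = 5) of the summed FPKM of MEF2A, MEF2C and MEF2D in IMPA and 22.2% ± 1.55 in IMA, whereas MEF2C held 34.9% ± 0.679 in IMPA and 74.8% ± 1.68 in IMA. MEF2D held 6.33% ± 0.657 in IMPA and 3.03% ± 0.284 in IMA. The groups did not overlap for any of the 3 shares, which are given without a test. The ratio of MEF2C to MEF2A in FPKM was 0.593 ± 0.0214 in IMPA and 3.39 ± 0.305 in IMA. The fourth family gene, MEF2B, counted with the MEF2 regulators below, was at 0.745 ± 0.0969 FPKM in IMPA and 1.28 ± 0.270 FPKM in IMA.

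**Figure D3:**
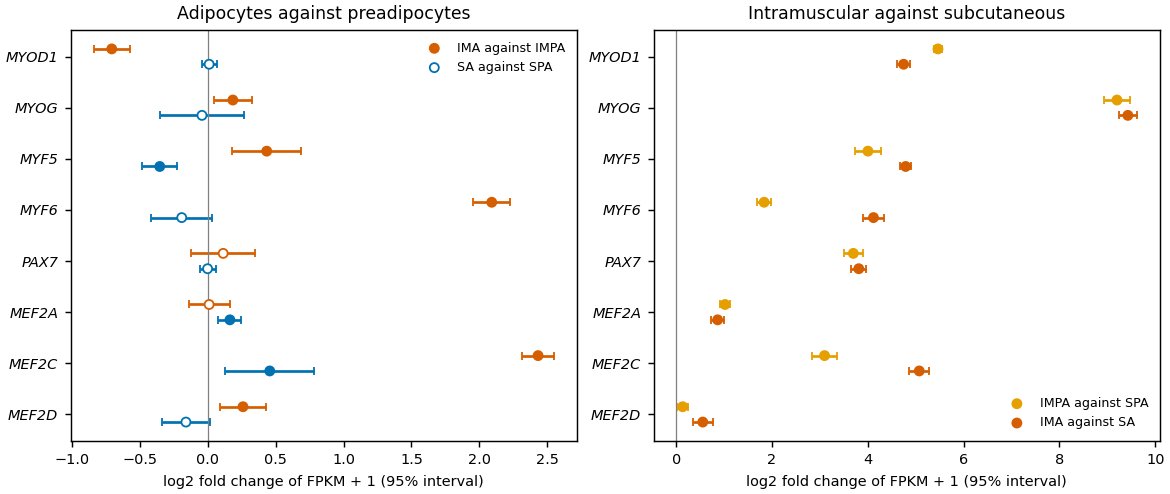
Log2 fold change of FPKM + 1 with its 95% interval for each of the 8 genes, adipocytes against preadipocytes on the left and intramuscular against subcutaneous cells on the right. MEF2C and MYF6 show the largest changes between IMPA and IMA, and filled points have an adjusted p under 0.05, which on the right says little for the 6 genes other than MEF2A and MEF2D because they passed the filter only through the intramuscular libraries.

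The levels of MYOD1, MYOG, MYF5 and MYF6 each rest on 1 annotated transcript, whereas PAX7 has 2 transcripts, MEF2A and MEF2C have 10 each and MEF2D has 5. FPKM of single transcripts depend on how the assembly program divides shared fragments among them, so the sums of the genes were used above. Nearly all MEF2C signal of the intramuscular cells came from the transcript XM_013965781.2, which held 90.8% ± 0.794 (SD, n = 5) of the sum in IMPA and 91.1% ± 0.328 in IMA. The next transcript, XM_005683422.3, held 5.54% ± 0.869 in IMPA and 7.64% ± 0.758 in IMA, and every IMA library was above every IMPA library. In the subcutaneous libraries XM_013965781.2 was at or below 0.191 FPKM, and the transcript with the highest mean was NM_001314204.1, with 0.460 FPKM in SPA and 0.821 FPKM in SA, although 2 of 5 libraries listed it at 0 in each group. The 2 PAX7 transcripts were both present in the intramuscular cells, where XM_018054746.1 held 58.7% ± 1.95 of the sum in IMPA and 64.4% ± 10.4 in IMA, and this transcript was listed at 0 in all 10 subcutaneous libraries.

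The MEF2D transcripts were less even. XM_018039417.1 was at 1.91, 1.95, 1.81, 1.49 and 1.33 FPKM in IMPA 1 to 5 and at 0.844, 2.06, 0.644, 0.664 and 0.702 FPKM in IMA 1 to 5. It was lower in 4 of the 5 IMA libraries than in any IMPA library, and IMA 2 was the highest of all 10. XM_018039411.1 was between 0.424 and 0.977 FPKM in the same 4 IMA libraries, was listed at 0 in IMA 2 and did not exceed 0.0962 FPKM in any IMPA library. XM_018039401.1 was between 0.440 and 0.990 FPKM in IMA 1, IMA 3, IMA 4 and IMA 5, and among the other intramuscular libraries it was above 0.0137 FPKM only in IMPA 5, at 0.916 FPKM. Measured by XM_018039417.1 alone, its most abundant transcript, MEF2D turned in direction, with log2 fold changes of −0.48 between IMA and IMPA (adjusted p = 0.0622), −0.50 between IMA and SA (adjusted p = 0.0495) and −0.38 in the interaction described below (adjusted p = 0.188). In SA, XM_018039417.1 held 98.7% ± 0.465 of the MEF2D sum, and in SPA it held between 72.6% and 99.2%.

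MEF2A showed that the division among transcripts can differ between libraries whose gene sums are close. XM_018065835.1 was at 7.28, 1.65, 5.93, 1.59 and 4.42 FPKM in SA 1 to 5, although the sum of MEF2A lay between 11.1 and 12.0 FPKM in these libraries. XM_018065830.1 was listed at 0 in the 3 libraries where XM_018065835.1 was high, SA 1, SA 3 and SA 5, and was at 1.04 FPKM in SA 2 and 1.13 FPKM in SA 4. Of 27 transcript shares compared between the stages, for genes with at least 1 FPKM in every library compared and transcripts holding at least 5% in a group, only that of XM_005683422.3 of MEF2C did not overlap between the groups.

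**Figure D4:**
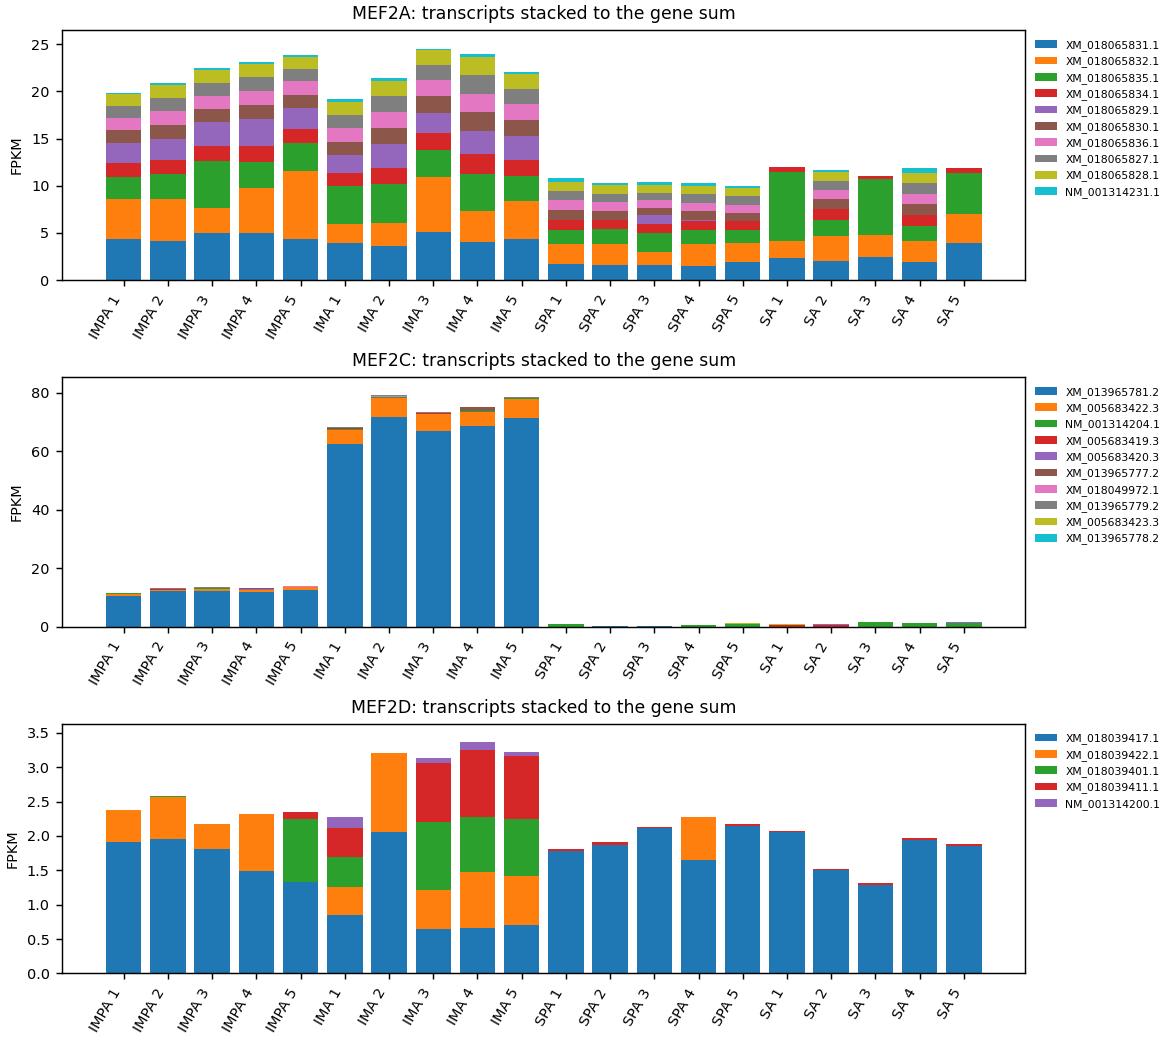
FPKM of the annotated transcripts of MEF2A, MEF2C and MEF2D, stacked to the sum of the gene in each of the 20 libraries. A single transcript makes up most of MEF2C in IMPA and IMA, and the division of MEF2D differs between IMA 2 and the other IMA libraries and that of MEF2A between SA 1, SA 3 and SA 5 and the other SA libraries.

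In the subcutaneous cells MYOD1, MYOG, MYF5, MYF6 and PAX7 were at or near the floor of the table, while MEF2A and MEF2D were above 1 FPKM in every library. The comparison of SA with SPA called 3 of the 8 genes, against 52.1% of all genes tested, and only 1, MYF5, when each gene was measured by its most abundant transcript. MEF2A and MEF2C were higher in SA (26.1% of all genes were higher) and MYF5 was lower (26.0% of all genes were lower). The median log2 fold change was −0.0219 over the 8 genes and −0.0091 over all genes tested.

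MYOD1 was listed at 0 in all 5 SPA libraries and in 4 SA libraries, and it was at 0.0363 FPKM in SA 4. MYOG was listed at 0 in 4 libraries of each subcutaneous group, with 0.619 FPKM in SPA 1 and 0.397 FPKM in SA 5 as the exceptions. PAX7 did not exceed 0.0443 FPKM in SPA or 0.0250 FPKM in SA. None of these 3 genes was called different between SA and SPA, with adjusted p of 0.763, 0.823 and 0.974, respectively, and no fold is given because both groups were at or near 0.

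MYF5 was at 0.358, 0.158, 0.489, 0.226 and 0.249 FPKM in SPA 1 to 5, whereas it was listed at 0 in SA 1 to SA 4 and at 0.0541 FPKM in SA 5. All SPA libraries were above all SA libraries, at levels that are small beside the 20.03 ± 4.25 FPKM (SD, n = 5) of IMPA. The adjusted p was 3.4e-04, and no fold is given against a group mostly listed at 0. MYF6, the neighbour of MYF5 in the RefSeq gene table of the goat (assembly ARS1.2), was at 0.503, 0.329, 0.551, 0.289 and 0.342 FPKM in SPA 1 to 5 and at 0.251, 0.536, 0.0868, 0.322 and 0 FPKM in SA 1 to 5. The SA libraries were spread across and below the SPA range, the adjusted p was 0.139, and without SA 2 alone it was 0.0222.

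MEF2A was at 10.9, 10.2, 10.4, 10.3 and 9.93 FPKM in SPA 1 to 5 and at 12.0, 11.7, 11.1, 11.9 and 11.9 FPKM in SA 1 to 5. Each SA library was above each SPA library by a small margin, with a log2 fold change of 0.16 (SE 0.039, adjusted p = 0.00389). The call was lost when FPKM were divided by the mRNA sum of the library (log2 fold change 0.0985, adjusted p = 0.0705). It was also lost when only the most abundant transcript was used, although the log2 fold change was then larger (0.37, adjusted p = 0.0766). MEF2C was at 0.946, 0.398, 0.256, 0.646 and 1.10 FPKM in SPA 1 to 5 and at 0.764, 1.04, 1.69, 1.34 and 1.54 FPKM in SA 1 to 5. The groups overlapped, the log2 fold change was 0.46 (SE 0.149, adjusted p = 0.0226), and without SPA 2, SPA 3, SA 3 or SA 5 the adjusted p was 0.0569, 0.055, 0.0547 and 0.052, respectively. The call of MEF2C was also lost with no filter on low values (adjusted p = 0.0713), and its direction reversed with the most abundant transcript alone (log2 fold change −0.11, adjusted p = 0.124), which was at or near 0 in these libraries. MEF2D averaged 2.06 ± 0.193 FPKM in SPA and 1.75 ± 0.321 FPKM in SA, and was not called different (adjusted p = 0.112), but it was called lower in SA after quantile normalization (log2 fold change −0.18, adjusted p = 0.0356).

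SPA 1 and SA 5 stood apart in other muscle genes as well as in MYOG. The 18 muscle differentiation and fusion genes summed to 16.8 FPKM in SPA 1 and to between 4.82 and 5.27 FPKM in the other SPA libraries, and to 9.80 FPKM in SA 5 and between 6.11 and 6.88 FPKM in the other SA libraries. TNNC1, a troponin of slow and cardiac muscle, was at 3.57 FPKM in SPA 1 and 0.653 FPKM in SA 5, and it did not exceed 0.261 FPKM in the other subcutaneous libraries. Without SPA 1 and SA 5 together, a choice made after the values were seen, MYOG was listed at 0 in all 8 remaining subcutaneous libraries, and the same number of 3 genes was called between SA and SPA. What set these libraries apart was not tested.

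Between the cell types, the levels of MYOD1, MYOG, MYF5, PAX7, MEF2A and MEF2C differed more than between the stages. In the comparison of IMPA with SPA, 8 of the 8 genes were called higher in IMPA, where 75.1% of all genes were called, 42.3% higher and 32.9% lower, although after quantile normalization fewer than 50% of the called genes were higher (46.4%, against 56.3% without it). In the comparison of IMA with SA, again 8 were called higher in IMA, where 72.4% of all genes were called, 29.0% higher and 43.4% lower. Since 6 of the genes passed the filter only through the intramuscular libraries, these counts are given as a description. The libraries did not overlap for 63.4% of all genes tested between IMPA and SPA and for 58.6% between IMA and SA. No library of IMPA overlapped with SPA and none of IMA with SA for MYOD1, MYOG, MYF5, MYF6, PAX7, MEF2A and MEF2C.

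MYF6 and MEF2C had the subcutaneous levels furthest from 0 among the genes that were low there. The mean of MYF6 was 9.93-fold higher in IMPA than in SPA, with a log2 fold change of 1.84 (SE 0.067), and that of MYF5 was 67.7-fold higher, with a log2 fold change of 4.00 (SE 0.126). No p-value is given for them because the filter selected these genes by their intramuscular level. The mean of MEF2C was 19.5-fold higher in IMPA than in SPA and 58.7-fold higher in IMA than in SA, with log2 fold changes of 3.10 (SE 0.124) and 5.07 (SE 0.097).

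MEF2A and MEF2D were expressed in all 20 libraries and differed less. The mean of MEF2A was 2.13-fold higher in IMPA than in SPA (log2 fold change 1.02, SE 0.050, adjusted p = 1.3e-09) and 1.90-fold higher in IMA than in SA (log2 fold change 0.87, SE 0.061, adjusted p = 1.1e-08). For MEF2D the ratio of means was 1.74 between IMA and SA, without overlap of the libraries (log2 fold change 0.56, SE 0.096, adjusted p = 1.3e-04). With the most abundant transcript alone, MEF2D was instead called lower in IMA than in SA (log2 fold change −0.50, adjusted p = 0.0495). Between IMPA and SPA the ratio of means of MEF2D was 1.14, the libraries overlapped and the adjusted p was 0.0415. This call was lost without IMPA 1, IMPA 2, IMPA 4, IMPA 5, SPA 1, SPA 2 or SPA 3 (adjusted p from 0.0521 to 0.0984). It was also lost with no filter on low values (0.0509), upper-quartile scaling (0.122) and scaling to the mRNA sum (0.0844). The same held with the replicate number as a block (0.0825) and with all 4 groups in the fit (0.138). In this comparison MEF2D reversed in direction after quantile normalization (log2 fold change −0.0474, adjusted p = 0.409) and with the most abundant transcript alone (−0.11, adjusted p = 0.347).

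In both intramuscular groups MYOG led the order of mean FPKM. In IMPA it was followed by MYOD1, MEF2A, MYF5, MEF2C, PAX7, MYF6 and MEF2D, and the libraries of MEF2A and MYF5 overlapped, as did those of MYF5 and PAX7 and of MEF2C and PAX7. In IMA it was followed by MEF2C, MYF5, MYOD1, MEF2A, MYF6, PAX7 and MEF2D, and the ranges of MYF5, MYOD1, MEF2A and MYF6 ran into each other. In SPA and SA the order began with MEF2A, MEF2D and MEF2C, and the libraries of MEF2C and MEF2D overlapped in SA but not in SPA.

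Whether the change from preadipocyte to adipocyte differed between intramuscular and subcutaneous cells was asked with an interaction term fitted to all 20 libraries. The term was called for 5 of the 8 genes, against 55.3% of all genes tested. The intramuscular change exceeded the subcutaneous change on the log2 scale for 4 genes (20.7% of all genes) and was below it for 1 gene (34.6% of all genes). These counts are a description only, since MYOD1, MYF5, MYF6 and MEF2C passed the filter only through the intramuscular libraries and were low in the subcutaneous cells. Their differences of −0.72 (SE 0.072), 0.79 (SE 0.140), 2.28 (SE 0.129) and 1.98 (SE 0.169) are given without a p-value, and those of MYOD1 and MYF6 mostly repeat the intramuscular change. The difference was 0.42 for MEF2D (SE 0.115, adjusted p = 0.00395), and it reversed to −0.38 with the most abundant transcript alone (adjusted p = 0.188). MYOG, PAX7 and MEF2A were not called (adjusted p = 0.253, 0.437 and 0.112), and MEF2A was called without IMPA 1 (0.0491), without IMA 3 (0.0458) or by its most abundant transcript alone (log2 difference −0.47, adjusted p = 0.0342).

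The partners and opponents of the myogenic factors were taken from gene lists. All 3 E proteins, TCF3, TCF4 and TCF12, with which the myogenic factors pair, were higher in IMPA than in SPA and in IMA than in SA, where 42.3% and 29.0% of all genes were higher. Their FPKM summed to 64.6 ± 1.63 (SD, n = 5) in IMPA, 58.3 ± 4.79 in IMA, 36.2 ± 1.04 in SPA and 34.9 ± 1.47 in SA, and TCF12 was the most abundant, with 41.2 FPKM in IMPA. In IMA, 2 of the 3 were lower than in IMPA, where 40.2% of all genes were lower, a count that was 1 after quantile normalization and 3 after scaling to the mRNA sum, and TCF3 had a log2 fold change of −0.23 (adjusted p = 0.00548). None of the 3 was called between SA and SPA, while 2 were lower after scaling to the mRNA sum.

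Inhibitors of the myogenic bHLH factors, such as the ID proteins that capture E proteins, were measured by 12 genes. Their summed level was 564 ± 16.3 FPKM (SD, n = 5) in IMPA, 529 ± 18.1 in IMA, 1053 ± 39.6 in SPA and 778 ± 22.1 in SA. Between IMA and IMPA 4 of the 12 rose (19.9% of all genes), 3 fell (40.2% of all genes) and 5 were not called, and the number that fell was 2 after upper-quartile scaling, 4 after quantile normalization and 5 after scaling to the mRNA sum. BHLHE40 (log2 fold change 0.92, adjusted p = 2.4e-05), SNAI1 (0.63, adjusted p = 7.3e-04) and HEY1 (−0.47, adjusted p = 0.00133) had the largest changes without overlap. Between SA and SPA 1 rose (26.1% of all genes) and 9 fell (26.0% of all genes), among them ID1, from 397 ± 37.5 to 233 ± 26.4 FPKM (log2 fold change −0.77, adjusted p = 1.1e-05). In the intramuscular cells ID1 was at 224 ± 6.55 FPKM in IMPA and 211 ± 13.1 FPKM in IMA, and its interaction was called (0.68, adjusted p = 7.5e-06). Of the 12 genes, 3 were higher (42.3% of all genes) and 8 lower (32.9% of all genes) in IMPA than in SPA, and TWIST2 (log2 fold change −2.39, adjusted p = 3.5e-12) and ID2 (−1.98, adjusted p = 4.8e-12) were lower while MSC, a bHLH repressor found in muscle cells, was higher (1.86, adjusted p = 5.2e-10). Between IMA and SA 7 were higher (29.0% of all genes) and 4 lower (43.4% of all genes) in IMA.

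Of 10 upstream regulators of the myogenic genes, 6 passed the filter on low values. EYA4, a transcriptional coactivator, was at 13.2 ± 1.17 FPKM in IMPA and 14.4 ± 1.31 in IMA and did not exceed 0.0349 FPKM in any subcutaneous library. PAX3, which precedes the myogenic factors in the embryo, did not exceed 0.0227 FPKM in any of the 20 libraries. Between IMA and IMPA none of the 6 rose and 2 fell, where 40.2% of all genes were lower, MEOX2 (log2 fold change −0.70, adjusted p = 4.7e-07) and SIX2 (−0.32, adjusted p = 0.00153), but 1 rose after upper-quartile scaling and 2 rose after quantile normalization, and 3 fell after scaling to the mRNA sum. Between SA and SPA 4 of the 6 fell, where 26.0% of all genes were lower.

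Regulators of MEF2 and a further family gene made up a list of 10, of which 9 were in the table. Between IMA and IMPA 4 of the 9 rose (19.9% of all genes) and 4 fell (40.2% of all genes). HDAC9, a class IIa histone deacetylase that binds MEF2, rose from 3.33 ± 0.321 to 5.77 ± 0.386 FPKM (log2 fold change 0.65, adjusted p = 4.1e-06) and VGLL2, a cofactor made in skeletal muscle, from 3.09 ± 0.286 to 5.16 ± 0.542 FPKM (0.59, adjusted p = 2.4e-05). HDAC7, a related deacetylase, fell from 7.05 ± 0.484 to 4.66 ± 0.241 FPKM (−0.51, adjusted p = 8.2e-06). None of the 9 rose and 6 fell between SA and SPA, where 26.1% of all genes were higher and 26.0% lower, including HDAC5 (−0.48, adjusted p = 2.0e-06) and HDAC4 (−0.47, adjusted p = 1.4e-04). MAPK14, the p38 kinase that phosphorylates MEF2 proteins, was the most abundant of the 9, with means from 22.0 FPKM in IMPA to 25.9 FPKM in SPA. Of the 9 genes, 6 were lower in IMPA than in SPA (32.9% of all genes) and 2 were lower in IMA than in SA (43.4% of all genes), and after quantile normalization 7 and 4 were lower. HDAC9 and VGLL2 were higher in both comparisons, but they passed the filter only through the intramuscular libraries.

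The muscle differentiation and fusion genes include known targets of the myogenic factors and MEF2. Between IMA and IMPA 15 of 18 rose, where 19.9% of all genes were higher, 2 fell, where 40.2% were lower, and 1, the receptor subunit CHRNB1, was not called, and the median log2 fold change was 1.42. MYH8, the perinatal myosin heavy chain, rose from 3.96 ± 1.04 to 48.1 ± 3.44 FPKM (log2 fold change 3.33, adjusted p = 8.5e-10), TNNC1 from 746 ± 55.8 to 2664 ± 68.9 FPKM (1.84, adjusted p = 8.0e-11) and ENO3, the muscle enolase, from 13.2 ± 0.989 to 49.4 ± 2.56 FPKM (1.83, adjusted p = 1.5e-10). The fusion gene MYMK, listed as TMEM8C, rose only from 13.3 ± 1.92 to 17.2 ± 2.08 FPKM (0.35, adjusted p = 0.0102). The 2 genes that fell were CDH15, the cadherin of satellite cells and myoblasts, from 29.1 ± 1.96 to 19.4 ± 1.24 FPKM (−0.56, adjusted p = 4.9e-06), and RAPSN, which clusters acetylcholine receptors, from 76.0 ± 5.41 to 61.2 ± 4.03 FPKM (−0.31, adjusted p = 6.1e-04). These counts were the same under the 3 other scalings.

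**Figure D5:**
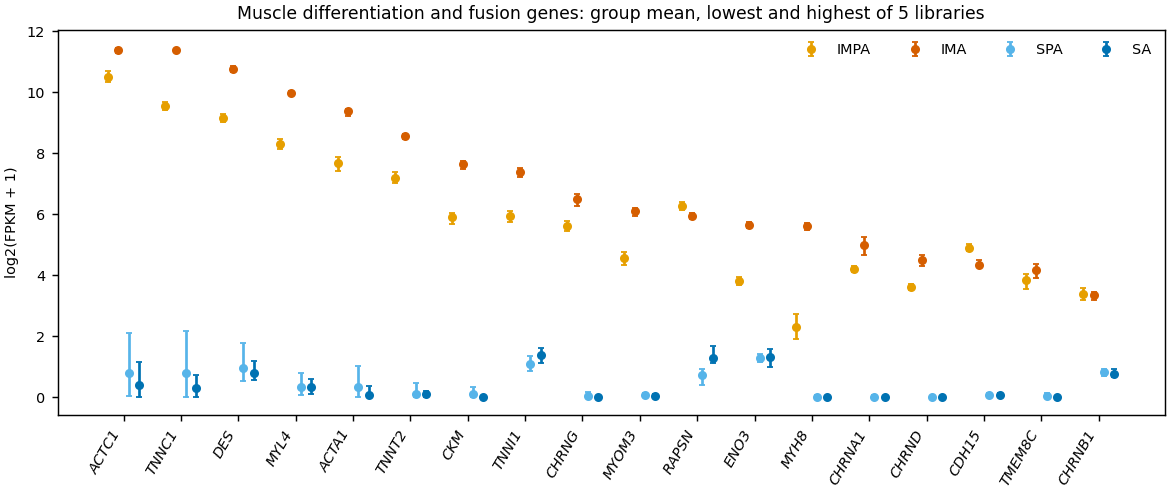
Mean level of 18 muscle differentiation and fusion genes as log2(FPKM + 1), with bars from the lowest to the highest of 5 libraries, in IMPA, IMA, SPA and SA. Most genes stand higher in IMA than in IMPA, CDH15 and RAPSN stand lower, and the subcutaneous groups lie near the bottom of the axis.

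In the subcutaneous cells 2 of the 18 genes rose and none fell between SPA and SA, where 26.1% of all genes were higher and 26.0% lower, RAPSN, from 0.657 to 1.44 FPKM (log2 fold change 0.55, adjusted p = 0.00152), and TNNI1, from 1.16 to 1.63 FPKM (0.29, adjusted p = 0.0431), and 1 gene was called after quantile normalization or after scaling to the mRNA sum. All 18 were higher in IMPA than in SPA (42.3% of all genes) and in IMA than in SA (29.0% of all genes). Most of the 18 passed the filter only through the intramuscular libraries.

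The other satellite cell markers did not share a single direction of change. Of 9 tested between IMA and IMPA, 1 rose and 3 fell, where 19.9% of all genes were higher and 40.2% lower, so the counts set these markers little apart from other genes. Among them were MET, the receptor of hepatocyte growth factor, at 20.6 ± 1.69 FPKM in IMPA and 12.0 ± 0.636 FPKM in IMA (log2 fold change −0.73, adjusted p = 7.6e-07), and CD82 at 64.2 ± 3.54 and 76.5 ± 2.97 FPKM (0.25, adjusted p = 3.6e-04). CDH15 was also among those that fell, and it was counted with the muscle genes above as well. After upper-quartile scaling 2 of the 9 rose and 2 fell. Between SA and SPA 1 of the 9 rose, where 26.1% of all genes were higher, and none did under any of the 3 other scalings, of which that to the mRNA sum gave 1 that fell. ITGA7, a laminin receptor of muscle cells and the most abundant of these markers in the intramuscular cells, was at 95.7 ± 9.84 FPKM in IMPA and 82.6 ± 7.82 FPKM in IMA, and it did not exceed 0.188 FPKM in the subcutaneous libraries.

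A list of 9 cell cycle genes holds both genes of dividing cells and inhibitors of the cycle. The inhibitors CDKN1A, CDKN1C and RB1 rose between IMPA and IMA, whereas MKI67, CCNB1, CCND1 and CDK4 fell and TOP2A and CDK1 were not called, where 19.9% of all genes were higher and 40.2% lower, and quantile normalization gave 4 that rose. The cyclin-dependent kinase inhibitor CDKN1A, a known target of MYOD1, was at 53.2 ± 2.98 FPKM in IMPA and 121 ± 8.12 FPKM in IMA (log2 fold change 1.17, adjusted p = 6.3e-09), while MYOD1 itself fell. CDKN1C, another inhibitor of the cycle, was at 340 ± 32.7 FPKM in IMPA and 460 ± 27.3 FPKM in IMA (0.44, adjusted p = 1.2e-04). In the subcutaneous cells 6 of the 9 rose (26.1% of all genes) and 1 fell (26.0% of all genes). CDKN1A was also higher in SA (85.3 ± 3.26 FPKM) than in SPA (73.3 ± 2.24 FPKM) without overlap. CDKN1C was lower in SA (27.1 ± 1.57 FPKM) than in SPA (39.2 ± 2.17 FPKM), also without overlap. TOP2A, a marker of dividing cells, was at 10.9 ± 0.922 FPKM in SPA and 57.2 ± 3.03 FPKM in SA, against 31.0 ± 3.59 FPKM in IMPA and 32.0 ± 2.44 FPKM in IMA.

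Genes with the most similar pattern were sought for each member by the root-mean-square difference of centred log2(FPKM + 1) values over the 20 libraries, as a description. For MYOD1 the nearest were IGFBP2 (0.14) and ITGA4 (0.18), and for MYOG they were ANKRD1 (0.50) and DES (0.53). The nearest to MYF5 were CSRP2 (0.26) and CHRNA1 (0.28), and, after an uncharacterised gene, the nearest to MYF6 were MYOM2 (0.21) and GMPR (0.21). EYA4 (0.17) was nearest to PAX7, and LRRN1 (0.19) was also near. ADPRHL1 (0.25), IL1RN (0.33) and MYOM1 (0.33) were nearest to MEF2C, and PCNX2 (0.09), DGKD (0.09) and MAST2 (0.09) to MEF2A. Like MYOD1, IGFBP2 was higher in IMPA (1934 ± 111 FPKM) than in IMA (1200 ± 101 FPKM), and like MEF2C, ADPRHL1 was higher in IMA (39.8 ± 4.16 FPKM) than in IMPA (7.95 ± 1.15 FPKM). A near pattern over all libraries did not always include the change between the stages, since DES rose from 573 ± 47.4 FPKM in IMPA to 1743 ± 114 in IMA and ANKRD1 from 498 ± 43.9 to 1068 ± 57.3, while MYOG rose 1.13-fold, and CSRP2 was at 117 ± 20.3 and 115 ± 6.09 FPKM, while MYF5 rose 1.35-fold. The group means of MEF2D spanned less than 1 on the log2 scale, so no gene was sought for it.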

How the data were processed

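The authors sequenced RNA of goat intramuscular and subcutaneous preadipocytes and adipocytes, with 20 libraries in 4 groups. The authors aligned reads to the goat genome (ARS1) with HISAT2 2.0.4, and FPKM per transcript, calculated with StringTie 1.3.1 and Ballgown, were deposited. Transcripts were summed per gene symbol (6 symbols hold 2 gene IDs) and used as log2(FPKM + 1) without further scaling. No counts per gene were used, so the number of reads behind each value is unknown.

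Groups were compared with limma 3.58.1 (R 4.3.3, variance trend, two-sided), in fits of 10 libraries for each pair of groups and 20 for the interaction. Adjustment followed Benjamini and Hochberg (BH) over 11432 genes with a mean of at least 1 FPKM. The steps were tested on simulated data. The genes and the lists were chosen with earlier results of these data known. From each list were named the most abundant gene, markers near 0, and up to 3 genes per comparison with the largest fold change among those called without overlap. Other genes named, the shares, ratios and single transcripts, and the counts without SPA 1 and SA 5 were chosen after values were seen. CABIN1, MYMX, MYH3, VCAM1 and FABP4 are listed genes without a row in the table used here.

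Alternatives were a pseudocount of 0.1, a minimum mean of 0.1 FPKM or none, upper-quartile scaling, quantile normalization, scaling to the mRNA sum, no variance trend, the replicate number as a block, all 4 groups in the fit, the most abundant transcript, and leaving out libraries. Figures were drawn with matplotlib 3.10.9 in Python 3.11.15.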

Additional observations from a re-analysis of the deposited data

Results flagged for a closer look

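A library stood far from the other 4 of its group in 6 of 31 groups of 5 values that were examined, where chance flags about 1 in 20 groups. MYOG was at 0.619 FPKM in SPA 1 and at 0.397 FPKM in SA 5, and the other libraries of these groups listed it at 0. MYOD1 was at 0.0363 FPKM in SA 4, MYF5 at 0.0541 FPKM in SA 5 and PAX7 at 0.0443 FPKM in SPA 1, each above the rest of its group. For MYOD1, MYOG and MYF5, 4 groups in all, the other libraries listed 0, so that any value above 0 stands apart and the chance rate does not apply. These 5 values all lie under 1 FPKM. MEF2D was at 2.27 FPKM in IMA 1, below the other IMA libraries. In IMA 1 mRNA held 68.7% of the summed FPKM of mRNA and long noncoding RNA, against 73.0% to 75.3% in the other IMA libraries. The cause was not tested.

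The interaction of stage and cell type fitted with limma was called for 5 of the 8 genes, against 55.3% of all genes tested. This count is a description only, since MYOD1, MYF5, MYF6 and MEF2C passed the filter on low values only through the intramuscular libraries. The intramuscular less the subcutaneous change on the log2(FPKM + 1) scale was −0.717 for MYOD1, 0.788 for MYF5, 2.28 for MYF6, 1.98 for MEF2C and 0.42 for MEF2D. MYOD1, MYF5 and MYF6 lie at or near 0 in the subcutaneous libraries. MYF5 was nevertheless called lower in SA than in SPA (adjusted p = 3.4e-04), and this adds to its difference. With the most abundant transcript alone, the difference of MEF2D reversed to −0.38 (adjusted p = 0.188).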

How the results depend on the processing

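With gene sums, the numbers of genes called, over all genes and over the 8 genes, stayed within 1.5 times in all 5 comparisons. The 8 genes then gave 5 to 6 calls between IMA and IMPA, 2 to 4 between SA and SPA, 7 to 8 between IMPA and SPA, 8 between IMA and SA and 5 to 6 in the interaction. With the most abundant transcript of each gene, 4, 1, 7, 8 and 5 were called in the same order. MYOD1, MYF5, MYF6 and MEF2C kept their direction and their call between IMA and IMPA under every alternative run.

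With the most abundant transcript in place of the gene sum, MEF2D reversed to −0.48 between IMA and IMPA and −0.11 between IMPA and SPA. It also reversed to −0.50 between IMA and SA and −0.38 in the interaction. MEF2A reversed to −0.0956 between IMA and IMPA, and MEF2C to −0.11 between SA and SPA. The most abundant transcript of PAX7 was listed at 0 in all subcutaneous libraries, so its value between SA and SPA was 0. After quantile normalization MEF2D was at −0.0474 between IMPA and SPA and PAX7 at 0.0226 between SA and SPA, and after scaling to the mRNA sum MEF2A was at −0.023 between IMA and IMPA. Without SPA 1 and SA 5 together, MYOG was at 0 and PAX7 at 0.00519 between SA and SPA. Leaving out each library in turn, the log2 fold change ranged from −0.0252 to 0.0599 for MEF2A (IMA against IMPA) and, for SA against SPA, from −0.139 to 0.0965 for MYOG, from −0.00618 to 0.0102 for PAX7 and from 0 to 0.0128 for MYOD1. Of these, MEF2D and MEF2C were called as gene sums, and the cause was not tested.

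The call of MYOG between IMA and IMPA was lost with no filter (adjusted p = 0.0648), quantile normalization (0.253), scaling to the mRNA sum (0.0542), all 4 groups in the fit (0.18) and at the level of transcripts (0.0632). MEF2C between SA and SPA was lost with no filter (0.0713). Of the called genes, 36.5% were higher in SA after scaling to the mRNA sum, against 50.1%, and 48.4% had a positive interaction after quantile normalization, against 37.5%. Quantile normalization also turned the majority between IMPA and SPA, from 56.3% higher in IMPA to 46.4%, and moved the share higher in IMA than in IMPA from 33.1% to 42.3%.

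Deviations of libraries with the same number correlated between 0.0417 and 0.121 for IMPA and IMA, where 4 of 5 matched their own number best. For SPA and SA they correlated between −0.242 and 0.122, and none matched its own number best. Whether IMPA and IMA libraries with the same number share a goat or a culture is unknown. With the replicate block, 6826, 5602, 8530, 8059 and 6304 genes were called in IMA against IMPA, SA against SPA, IMPA against SPA, IMA against SA and the interaction, and 6, 3, 7, 8 and 5 of the 8 genes. With the block the call of MEF2D between IMPA and SPA was lost (adjusted p = 0.0825) and no other call of the 8 genes changed.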
